A study of Mus musculus with 15 samples.

Results

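In A.E7 cells stimulated through the T cell receptor (TCR), messages of 4 of the 6 measured T helper cytokines, of the chemokines Xcl1 (17.5-fold) and Ccl9 and of granzymes A and B were lower when a mix of rapamycin, PD98059 and SB203580 was added. Tnf (13.4-fold), Ccl4 (10.9-fold), Ccl3 and the antigen-processing genes Psmb9 and Tap1 were higher with the mix. With it Psmb9 and Tap1 were near their level in mock stimulated cells, and Tnf without it was below its level in such cells. Of the early factors, Fos and Fosb were lower, while Egr2 and Nr4a1 stayed within 2-fold of their level without the mix. Nr4a2 was lower by 2.04-fold on its brightest probe set, a log2 ratio of -1.03, and stood at -0.26 on another. The probe sets of Egr3 disagreed (-0.33 and -1.60 on the log2 scale). The comparison set the 3 arrays titled Combo against the 3 titled Anergic, 1 of each on chip types A, B and C, which makes 6 of the 15 arrays in the series.

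A.E7 is a mouse CD4 T helper clone, so every value describes 1 clone. Anergic arrays held RNA of cells stimulated with anti-TCR alone, called anti-TCR below. Combo arrays held RNA of cells given anti-TCR with the 3 drugs together, so no drug can be read apart from the others. The remaining arrays held RNA of mock stimulated cells, or of cells given anti-TCR with cyclosporin A (CSA) or with a PKC inhibitor (PKCi) that the labels do not name. Each RNA was a pool of cells taken at 2, 4 and 6 h. The labels state no dose, vehicle or pretreatment time.

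Rapamycin, bound to the protein Fkbp1a, blocks the mTOR complex that drives ribosome synthesis, translation and nutrient uptake. PD98059 keeps the kinase MEK from being activated, so that the MAP kinase ERK is not switched on. SB203580 inhibits the MAP kinase p38, which among other things stabilises short-lived cytokine messages. In T helper cells these branches run beside the calcium branch, in which calcineurin activates NFAT, and all of them feed early transcription after TCR contact. Stimulation of a T cell clone without costimulation can leave it unresponsive, a state called anergy.

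A value is the deposited array intensity of a probe set, and it was raised to a floor, the median of all 5 arrays of its chip type (51.1, 69.5 and 55 on chip types A, B and C). A probe set counted as measured where the brighter of its Combo and anti-TCR values was at least 4 times the floor. It was called higher or lower at 2-fold or more. With 1 array per treatment and chip type there is no replicate, no test and no error over cultures, so a called difference is one between these RNA pools. Where the dimmer value lay at or under the floor, the fold is a lower bound and is written "at least".

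Of 36701 probe sets, 8608 (23.5%) were measured. Higher with Combo were 666 probe sets (7.74% of those measured), and 517 were lower (6.01%). Probe sets with 1 gene symbol gave 15964 genes, each read from its brightest probe set, of which 5621 were measured. Among these genes 447 (7.95%) were higher with Combo, 307 (5.46%) were lower and 4867 were not called, so that 13.4% were called in either direction, and the median log2 ratio was 0.02. The shares of 7.95% and 5.46% are the ones to read beside the counts of the gene lists below. At 4-fold or more, 36 genes were higher and 52 lower. Of the 1130 measured probe sets without a symbol, 61 were higher and 82 lower, and of the 234 with several symbols, 20 and 11. On either side of the upper limit stood Taf12 (144.5 with anti-TCR and 289.2 with Combo, called) and Dusp12 (135.3 and 270.5, not called). On either side of the lower one stood 2410017I17Rik (called) and Dkc1 (501.4 and 251.5, not called). The lowest brighter values that passed belonged to probe sets of Vps37c (204.4), Micu2 (278.1) and Marchf6 (220) on chip types A, B and C. Those just outside were 204.2 (2210016L21Rik), 277.6 (Uchl5) and 219.7 (Fgfr1op2).

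**Figure D1:**
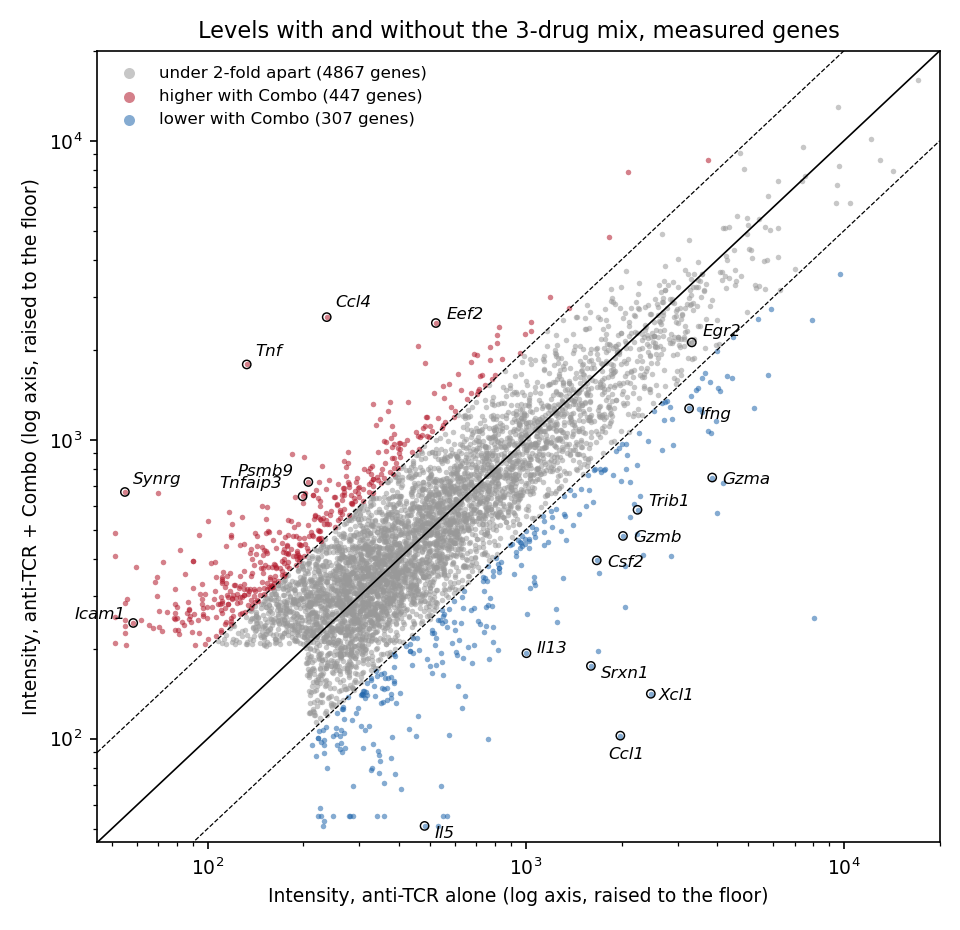
Each point is a measured gene, placed by its array intensity with anti-TCR alone and with Combo, both on log axes and raised to the floor; dashed lines mark 2-fold. Tnf and Ccl4 lie far above the diagonal, Xcl1, Ccl1 and Il5 far below it, and Egr2 lies between the dashed lines.

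Agreement between probe sets of the same gene is the error that these arrays allow. Over 1143 pairs of measured probe sets on different chip types (751 genes), the log2 ratios differed with a technical SD of 0.55 per probe set, and over 931 pairs on the same chip type with 0.56. Genes called higher had a measured probe set on another chip type in 46 cases, of which 39 (84.8%) had the same sign and 12 (26.1%) were also higher by 2-fold. For genes called lower the numbers were 41, 33 (80.5%) and 14 (34.1%). The median log2 ratio of the called genes shrank from 1.28 on the brightest probe set to 0.69 on the other one, and from -1.37 to -0.79. Among genes under 2-fold, the sign was shared by 62.0% of those above 0 and 55.4% of those below 0. A probe set that repeats a call also has the same sign, so the share with the same sign could not be the smaller of the 2. Genes were called by the ratio of their brightest probe set, which favours larger ratios there than on the other one.

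Whichever chip type the further probe set was on, 69 genes called higher and 70 called lower had one that was measured. Of these, 14 called higher and 17 called lower, 31 genes together, had a measured probe set of opposite sign. Ccl1, a chemokine of activated T cells, stood at -4.28 on its brightest probe set and at 0.65 on another. Slc1a5, the glutamine transporter, was at 1.91 on a suffixed probe set and at -1.02 on a plain one. Suffix letters mark probe sets that can bind several genes or that were built with relaxed rules. Satb1, Brap and Rbck1 are further examples, named after their values were seen, in which a bright suffixed probe set on chip type B was lower and another probe set stood above 0. The brightest value of the Combo array of chip type B was 3976, against 7010 on the anti-TCR array, while the medians of those arrays were 70.8 and 68. Whether this took part in such calls was not tested.

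**Figure D2:**
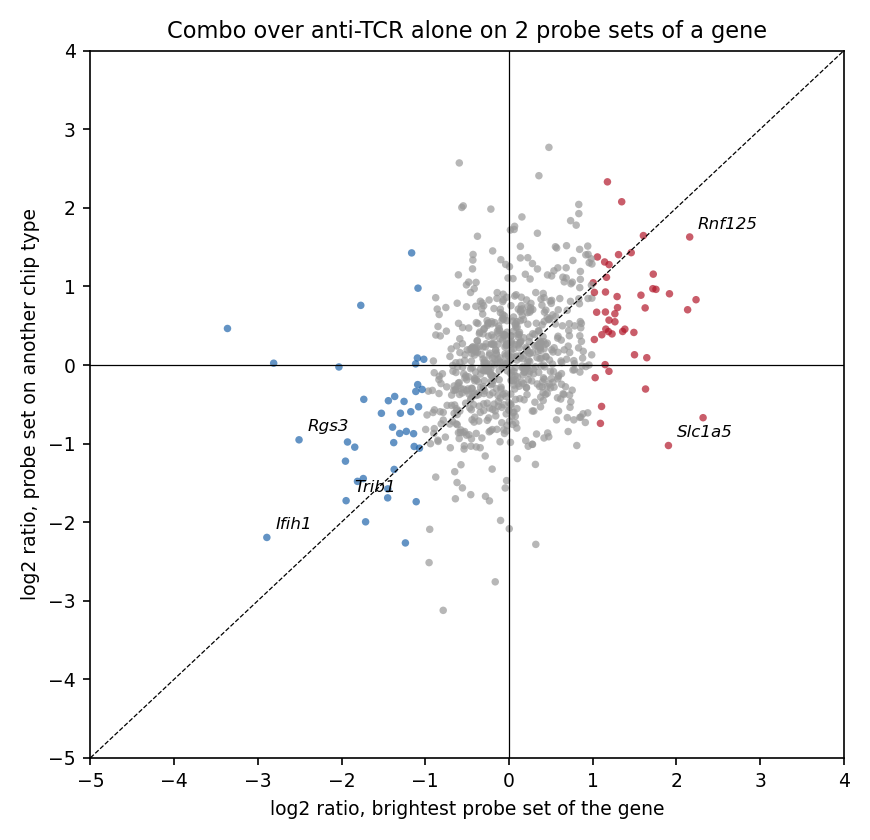
Each point is a gene with measured probe sets on different chip types, placed by the log2 ratio of Combo over anti-TCR on its brightest probe set and on a probe set of another chip type; red and blue mark genes called higher and lower on the brightest one, grey the rest. Most called genes lie on the same side of 0 on both axes, nearer to 0 on the vertical one, and Slc1a5 is an exception.

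The labelled cell type was checked against marker lists. Of 10 CD4 T helper clone markers on the arrays 9 were measured, 7 of them below 0, with a median log2 ratio of -0.18. Cd4 (608 with anti-TCR and 880 with Combo) and Cd3g (1276 and 1631) were the 2 above 0. Ifng was the 1 called, as lower. None of the 15 B cell and 12 erythroid or neutrophil markers was measured. Of 19 macrophage and dendritic cell markers Ctss (515 and 456) and Cd14 (219 and 203) were measured, and neither was called. Of 8 CD8 T and NK cell markers 4 were measured, all lectin receptors. They were Klrc1 (1453 and 968), Klrk1 (483 and 372), Klre1 (409 and 360) and Klrd1 (1594 and 1948). Their log2 ratios ran from -0.59 to 0.29, and Klrc1 and Klrd1 were brighter than Cd4 in both treatments. Cd8a was far below the floor at 7.5 and 2.6. In RNA of whole cultures, fewer cells making a message and less message per cell cannot be told apart.

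Most measured T helper cytokines were lower. Of 14 on the arrays 6 were measured, 4 were lower and none was higher, with a median log2 ratio of -1.72 against 0.02 over all genes. Il5, the eosinophil growth factor, was at 44.9 in mock cells, 481 with anti-TCR, 71.8 with CSA, 40.3 with PKCi and 6.5 with Combo, at least 9.41-fold lower. Il13, its neighbour in the type 2 cytokine cluster, was at 10.5, 1005, 71.6, 7.2 and 193 in the same order, a log2 ratio of -2.38. For both genes the anti-TCR value stood alone above those of the other 4 arrays.

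Csf2, which encodes GM-CSF, was at 21.6 in mock cells, 1672 with anti-TCR and 395 with Combo, 4.23-fold lower, and at 151 and 9.7 with CSA and PKCi. Ifng, the type 1 cytokine interferon gamma, was at 151 in mock cells, 3261 with anti-TCR, 538 with CSA, 84.1 with PKCi and 1273 with Combo. Its log2 ratio of -1.36 was the smallest of the 4 calls, and Combo left it higher than either other inhibitor treatment did. Tgfb1 (2257 with anti-TCR and 1268 with Combo) and Csf1 (2448 and 2051) were below 0 but not called. Il2, Il3, Il4 and Il10 were under the floor on every array.

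The promoters of Il5 and Il13 are shown because both messages fell and both genes belong to the same cluster on chromosome 11. The stretches are the 250 bases before each annotated start in RefSeq (GRCm38.p6), Il5 at chr11:53720544-53720793 on the plus strand and Il13 at chr11:53634703-53634952 on the minus strand, printed 5′ to 3′ along the gene. Capitals mark GGAAA, the core of NFAT sites, on either strand (TTTCC on the printed one).
Il5: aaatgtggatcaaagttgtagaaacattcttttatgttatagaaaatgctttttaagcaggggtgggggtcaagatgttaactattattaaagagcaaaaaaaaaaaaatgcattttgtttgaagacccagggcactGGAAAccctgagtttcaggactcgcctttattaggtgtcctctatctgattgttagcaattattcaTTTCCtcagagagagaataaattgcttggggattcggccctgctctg
Il13: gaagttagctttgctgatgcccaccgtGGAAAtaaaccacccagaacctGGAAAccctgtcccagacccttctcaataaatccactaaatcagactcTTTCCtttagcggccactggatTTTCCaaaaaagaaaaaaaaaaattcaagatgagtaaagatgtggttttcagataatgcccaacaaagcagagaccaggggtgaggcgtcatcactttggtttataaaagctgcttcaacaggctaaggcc
There were 2 matches in Il5 and 4 in Il13. GGAAA is common: 55.6% of 32851 promoters of this length hold it, as did 59.0% of the 4589 measured genes with a promoter entry, 59.4% of those called higher and 63.8% of those called lower. In the cytokine list 5 of 6 promoters held it.

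Chemokines split. Of 11 on the arrays 6 were measured, 3 were lower and 2 higher, with a median of -2.10. Xcl1, lymphotactin, which draws cross-presenting dendritic cells, was at 9.5 in mock cells, 2472 with anti-TCR, 42.8 with CSA, 36.3 with PKCi and 141 with Combo, 17.5-fold lower. Ccl9 was at 532 with anti-TCR and 20.9 with Combo, at least 10.4-fold lower, and under the floor in mock cells and with CSA and PKCi. Ccl1 (1983 and 102) was 19.4-fold lower on its brightest probe set, and is the gene whose other probe set stood above 0. In these 3 genes all inhibitor treatments were far below anti-TCR alone.

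Ccl4 and Ccl3, neighbouring genes that encode the inflammatory chemokines MIP-1beta and MIP-1alpha, were the 2 that were higher. Ccl4 was at 133 in mock cells, 237 with anti-TCR, 2171 with CSA, 29.6 with PKCi and 2571 with Combo, a log2 ratio of 3.44. Ccl3 was at 50.5, 1363, 328, 8.4 and 2750, a log2 ratio of 1.01. Both genes were highest of all 5 arrays with Combo, and with PKCi both were under the floor. CSA stood near Combo for Ccl4 and below anti-TCR for Ccl3. Ccl22 (292 with anti-TCR and 166 with Combo) was not called.

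TNF superfamily ligands also split. Tnf, the inflammatory cytokine, was at 334.5 in mock cells, 133 with anti-TCR, 892 with CSA, 341 with PKCi and 1786 with Combo, 13.4-fold higher than with anti-TCR (log2 3.75). Lta, lymphotoxin alpha, was at 43.5, 1254, 145, 55.7 and 246 on a suffixed probe set, a log2 ratio of -2.35. Ltb, lymphotoxin beta, was at 2737 with anti-TCR and 3168 with Combo (log2 0.21). These 3 genes are neighbours on mouse chromosome 17 (GRCm38.p6), Ltb at 35194507 to 35196305, Tnf at 35199367 to 35202007 and Lta at 35203165 to 35205578, of which Tnf was higher, Lta was lower and Ltb was not called. Tnf and Ccl4 rest on 1 measured probe set each. For Tnf the anti-TCR value was the lowest of all the treatments, and whether that reading was low in error was not tested.

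The Tnf promoter is printed beside the cytokine promoters because the gene went the other way. It is chr17:35202008-35202257 on the minus strand, with the same capitals.
Tnf: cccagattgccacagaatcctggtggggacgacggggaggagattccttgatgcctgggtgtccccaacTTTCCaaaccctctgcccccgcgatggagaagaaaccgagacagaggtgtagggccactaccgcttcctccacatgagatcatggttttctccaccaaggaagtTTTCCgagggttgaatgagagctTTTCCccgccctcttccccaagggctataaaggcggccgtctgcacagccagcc
It held 3 GGAAA matches, and all 6 TNF superfamily genes with a promoter entry held at least 1. The motif was thus present in promoters of genes that were higher and of genes that were lower.

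Of the other TNF superfamily ligands, Tnfsf10 (TRAIL) was 1.24 higher on the log2 scale, at 583 in mock cells, 245 with anti-TCR and 578 with Combo. Tnfsf11 (RANKL; 2435 with anti-TCR and 1481 with Combo), Tnfsf9 (741 and 415) and Fasl (1534 and 1051) were between -0.84 and -0.55. Of the 7 measured members 2 were higher and 1 lower, with a median of -0.55.

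**Figure D3:**
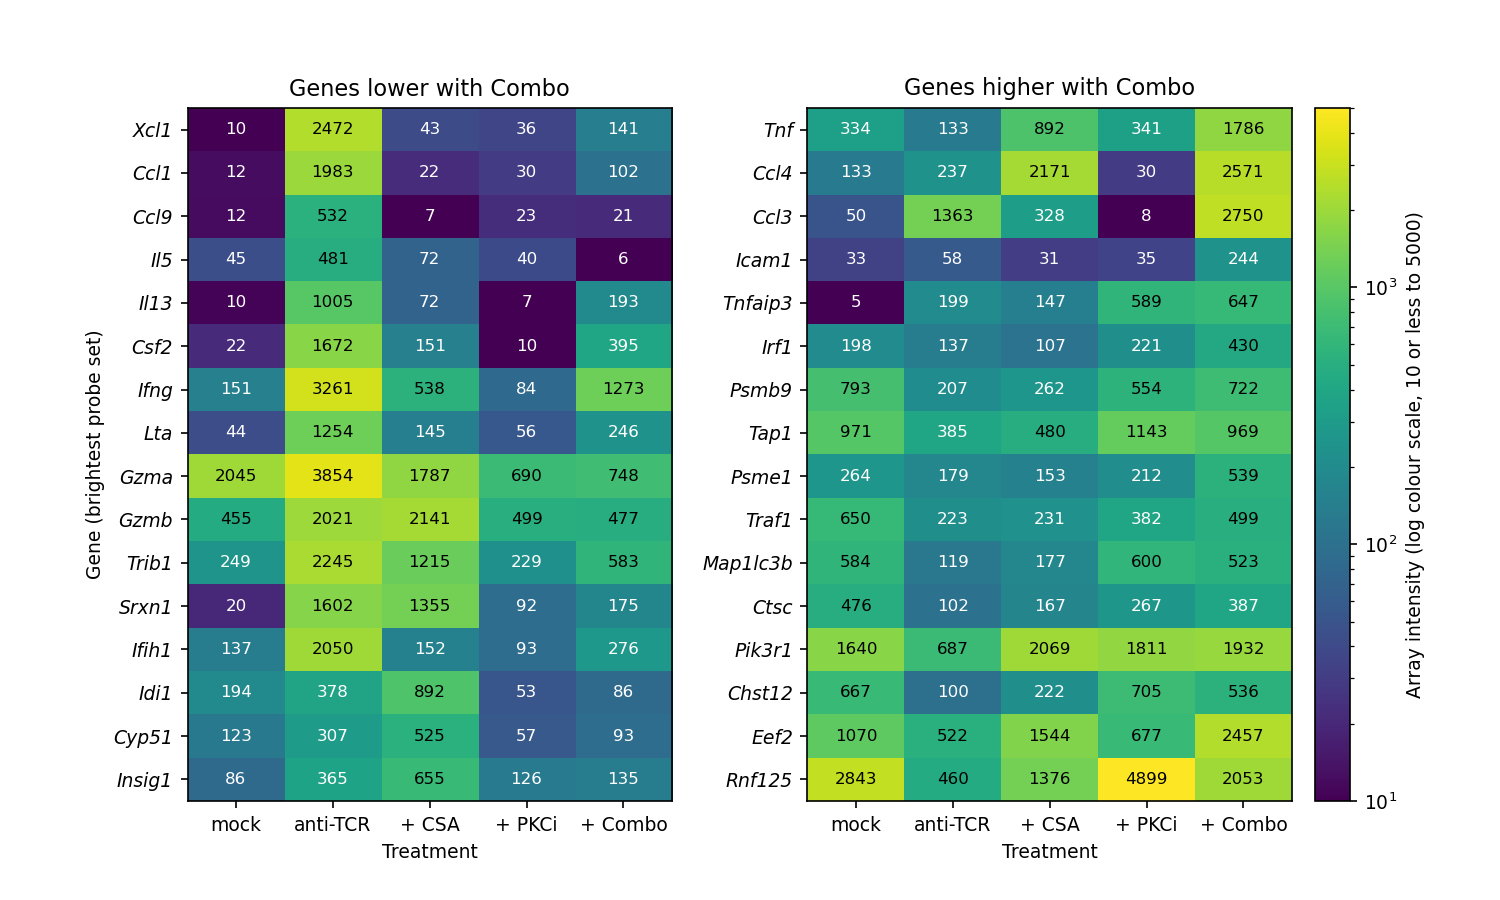
Array intensity of 16 genes called lower and 16 called higher with Combo, in mock cells and with anti-TCR alone or with CSA, PKCi or Combo; numbers are intensities of the brightest probe set and the colour scale is logarithmic. On the left each gene is dimmer with Combo than with anti-TCR alone, and Gzmb, Idi1, Cyp51 and Insig1 are brightest with CSA. On the right Psmb9, Tap1 and Map1lc3b have Combo near mock, and Tnf, Ccl4 and Ccl3 have it well above mock.

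Granzymes A and B were lower. Gzmb, the death protease that cleaves caspases, was at 455 in mock cells, 2021 with anti-TCR, 2141 with CSA, 499 with PKCi and 477 with Combo, 4.24-fold lower. Gzma, a tryptase of the same granules, was at 2045, 3854, 1787, 690 and 748 on a suffixed probe set, a log2 ratio of -2.37 that left it below mock cells. Combo and PKCi were alike in level for both, while CSA was not below anti-TCR for Gzmb. Srgn, the granule proteoglycan (1471 with anti-TCR and 899 with Combo), and Gzmd (2647 and 2061) were below 0 and not called. Of the 9 measured granzymes and NK lectin receptors none was higher, and the median was -0.59.

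Early genes that ERK is known to switch on stood mostly below 0. In the list of ERK feedback and target genes 18 were measured, 2 of them lower and 1 higher. That called share was near the 13.4% of all genes. Below 0 stood 15, against 48.6% of all genes, and the median was -0.55. The list median over anti-TCR was -0.35 with CSA and -2.54 with PKCi, so values below 0 were not particular to Combo. Housekeeping genes had a median of -0.39 with Combo. Spry1, a Sprouty inhibitor of the pathway, was at 41.7 in mock cells, 3428 with anti-TCR, 81.3 with CSA, 103 with PKCi and 1465 with Combo, a log2 ratio of -1.23. Fos, the partner of Jun in AP-1, was at 17.1, 370, 126, 23.5 and 159, a log2 ratio of -1.21. Both stood far above mock cells with Combo.

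The phosphatases Dusp2, Dusp5 and Dusp6, which switch MAP kinases off, were not called on their brightest probe sets. Dusp6 was at 634 with anti-TCR and 432 with Combo (log2 -0.56, and 0.27 on another probe set). Dusp5 was at 3670 and 2020 (-0.86), and Dusp2 at 2972 and 1534 (-0.95, with -2.52 on a suffixed probe set). Spred1, another brake on the pathway, was at 499 and 425 on its brightest probe set, while a further one gave -1.40. Ier2 (2990 and 1701), Ier3 (3532 and 2408), Phlda1 (2566 and 1528) and Mcl1 (2686 and 4869, suffixed) also stayed within 2-fold, as did Etv4 (209 and 200, suffixed). Dusp7, another ERK phosphatase, was higher, at 794 in mock cells, 180 with anti-TCR and 482 with Combo.

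Egr factors, zinc finger proteins made within the hour after TCR contact and linked to anergy, had no member called lower on its brightest probe set. Egr2 was at 43.8 in mock cells, 3325 with anti-TCR, 582 with CSA, 41.7 with PKCi and 2116 with Combo, a log2 ratio of -0.65. Egr3 was at 121, 4354, 2359, 72 and 3470, a log2 ratio of -0.33, and another probe set gave -1.60. Egr1 was at 86.9, 345.5, 675, 13.4 and 639, so it stood 0.89 higher with Combo. Egr4 was called higher (1.03) on a suffixed probe set and stood at -0.19 on the other. Nab2, a corepressor of Egr proteins, was at 1987 with anti-TCR and 1073 with Combo (-0.89), and Nab1 at 854 and 656 (-0.38). For Egr1 and Egr3 the PKCi value was under the mock value and for Egr2 both were under the floor, while the Combo value was far above mock for all 3.

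The Nr4a orphan nuclear receptors, also linked to T cell tolerance, were all below 0. Nr4a1 was at 64 in mock cells, 3002 with anti-TCR, 2244 with CSA, 77.3 with PKCi and 2205 with Combo (log2 -0.45). Nr4a3 was at 74.4, 4965, 1160, 149 and 2676 (-0.89). Nr4a2 was at 22.7, 2536, 122, 127 and 1245 and passed the limit at -1.03. Their further probe sets were on the same side of 0, at -0.29 for Nr4a1, -0.81 for Nr4a3 and -0.26 for Nr4a2.

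**Figure D4:**
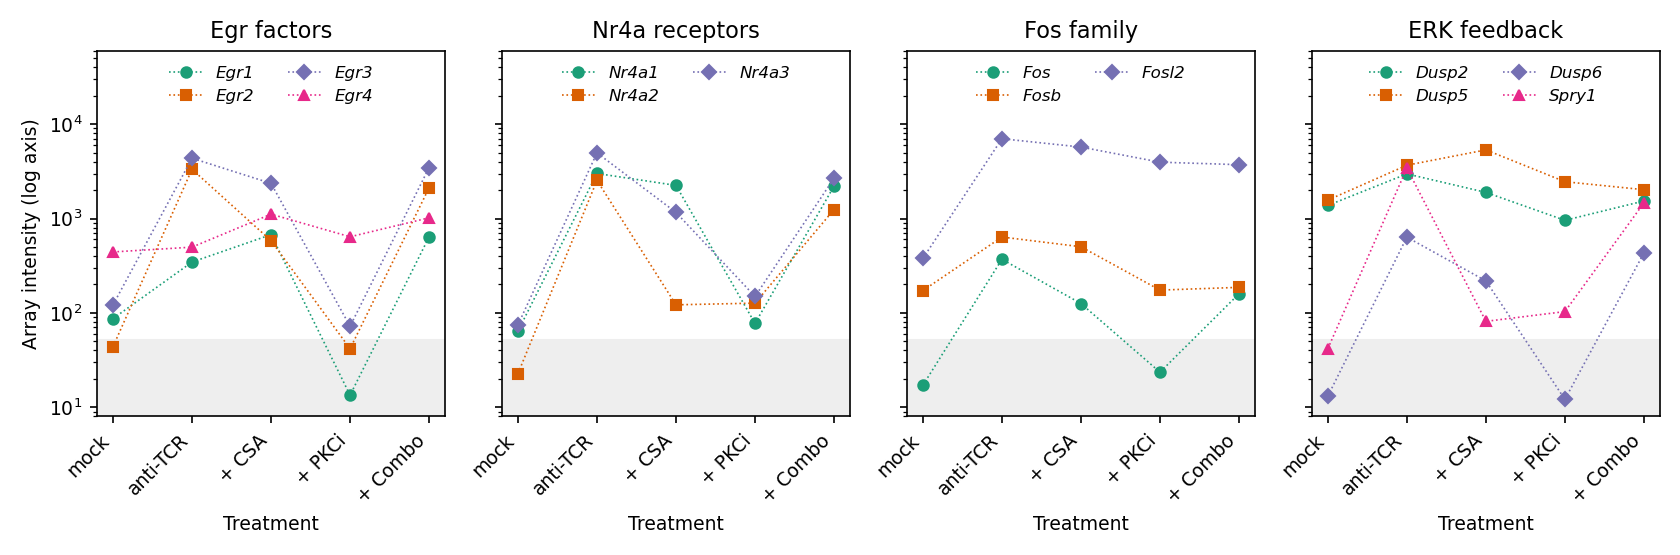
Array intensity (log axis) of Egr factors, Nr4a receptors, Fos family members and ERK feedback genes in the 5 treatments, 1 array each; dotted lines only join the points of a gene, and the grey band lies below the floor of chip type A. With Combo most points are within 2-fold of those of anti-TCR alone, but Fos, Fosb, Spry1 and Nr4a2 are lower and Egr4 is higher by 2-fold or more. With PKCi, Egr2, Egr3, Nr4a1, Nr4a2 and Nr4a3 are far below anti-TCR alone.

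Among 12 measured AP-1 subunits and partners, Fosb joined Fos below the limit. It was at 172 in mock cells, 637 with anti-TCR, 502 with CSA, 174 with PKCi and 186 with Combo, a log2 ratio of -1.77. Batf, an AP-1 factor of T helper cells, was higher, at 103 with anti-TCR and 276 with Combo (log2 1.41), and Jund stood at 635 and 1205 (0.92). The median was -0.38. Maff was at 472 and 248.

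Among the targets of the drugs and their near partners, p38 alpha was higher in message and an ERK-activated kinase lower. Of 20 on the arrays 11 were measured, and these were the 2 called, against 13.4% of all genes. Map2k1 and Map2k2, which encode MEK, were at 363 and 291 with anti-TCR and at 479 and 187 with Combo. Mapk14, which encodes p38 alpha, was at 549 and 1124 (1.03, suffixed). Rptor (279 and 338) and Mlst8 (208 and 295), partners of mTOR, Rheb (386 and 303), its activator, and Fkbp1a (1752 and 1530) were not called. Neither were Eif4e (388 and 323, suffixed), Tsc2 (216 and 164, suffixed) and Map2k3 (3069 and 2537). Rps6ka3, which encodes the ERK-activated kinase RSK2, was lower, at 240 in mock cells, 2684 with anti-TCR, 1649 with CSA, 374.5 with PKCi and 923 with Combo. In the p38 list 10 were measured, with 1 higher (Mapk14), none lower and a median of 0.07. Gadd45b, an upstream activator of p38, stood at 1715 and 2536 on a suffixed probe set.

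Of 22 measured anergy-linked and negative regulators, 2 were lower (Nr4a2 and Nfatc1), none was higher and the median was -0.19, a called share near that of all genes. Nfatc1, a member of the NFAT family, was at 342 in mock cells, 2236 with anti-TCR, 223 with CSA, 277 with PKCi and 820 with Combo (log2 -1.45). Of its 3 probe sets 1 was at 0.15, so the call did not hold on every probe set. Rnf128 (GRAIL), a ubiquitin ligase of anergic cells, was at 496 with anti-TCR and 603 with Combo, and Ctla4, the inhibitory receptor, at 373 and 731.5 (0.97). Of 12 measured genes of the calcineurin and NFAT pathway, Nfatc1 alone was called. Of 20 in the TCR complex and proximal signalling list the adaptor Lcp2 alone was, at 2879 and 1175, and Fyn stood at 4059 and 2091 (-0.96).

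Of 15 activation, costimulatory and inhibitory receptors 1 was called, and of 11 cytokine receptors 3, against 13.4% of all genes. Tnfrsf9 (4-1BB) was lower, at 8.4 in mock cells, 351 with anti-TCR and 131 with Combo, and Slamf1 (1561 and 817) stood at -0.93. Ifngr1, a chain of the interferon gamma receptor, was higher, at 551 in mock cells, 130 with anti-TCR, 418 with CSA, 1203 with PKCi and 364 with Combo. Il4ra, of the IL-4 receptor, was higher too (91.2 with anti-TCR and 206 with Combo), and Il10ra was lower (219 and 87.8). In the Socs, Cish and Stat list, Stat4 (150 and 304), Tyk2 (236 and 539) and Pim1 (991 and 2264) were higher and Jak2 (559 and 247) lower, of 16 measured.

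Interferon response and Irf genes were the list with the highest median, 0.64. Of 17 measured, 5 were higher and 2 lower, against 7.95% and 5.46% of all genes. Above 0 stood 13 and below it 4, while 48.6% of all genes stood below 0. The list median over anti-TCR was 0.49 with PKCi and -0.04 with CSA. Irf1, the factor that drives antigen-processing genes, was at 198.5 in mock cells, 137 with anti-TCR, 107 with CSA, 221 with PKCi and 430 with Combo (log2 1.65). Psmb9, an immunoproteasome subunit, was at 793, 207, 262, 554 and 722 (1.80). Tap1, which carries peptides into the endoplasmic reticulum, was at 971, 385, 480.5, 1143 and 969 (1.33). For Psmb9 and Tap1, anti-TCR and CSA were low, and mock, PKCi and Combo were high. Tapbp (1.23) and Psmb10 (1.04) complete the 5, and were named after their values were seen; Tapbp had a further probe set at -0.18. Psme1, an activator subunit of the proteasome, was higher as well, at 179 and 539 (1.59).

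The other direction was taken by Irf8, at 148 in mock cells, 1404 with anti-TCR and 520 with Combo (log2 -1.43), and Isg20, an RNA nuclease, at 392 and 131 (-1.58). Ifih1, the RNA sensor MDA5, was outside that list and among the 20 genes with the largest falls. It was at 137 in mock cells, 2050.5 with anti-TCR, 152 with CSA, 93.3 with PKCi and 276 with Combo (-2.89), and a probe set on another chip type gave -2.19.

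Psmb9 and Tap1 start back to back, and the 225 bases between their starts serve as the promoter of both, so this stretch is shown for 2 messages that were higher together. It is chr17:34187331-34187555 (GRCm38.p6, RefSeq), printed on the plus strand, along which Tap1 is read. Capitals mark a loose frame of NF-kB sites (GGG, any 5 bases, then CC) on either strand; matches may overlap each other and may hold a GGAAA.
Psmb9-Tap1: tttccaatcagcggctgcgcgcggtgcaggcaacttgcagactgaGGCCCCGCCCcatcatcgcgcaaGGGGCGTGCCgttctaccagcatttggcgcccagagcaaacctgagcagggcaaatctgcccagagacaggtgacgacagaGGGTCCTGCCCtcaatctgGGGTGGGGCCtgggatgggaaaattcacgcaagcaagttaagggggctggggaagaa
There were 5 matches. The frame is loose, held by 45.8% of all promoters of 250 bases, by 67.3% of those of measured genes, and by 67.2% and 68.7% of those of genes called higher and lower. The shares of the called genes were thus near that of the measured genes.

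NF-kB genes had a median of 0.12, with 3 of 17 higher and 1 lower, against 7.95% and 5.46% of all genes. Tnfaip3 (A20), an inhibitor of the pathway, was at 4.9 in mock cells, 199 with anti-TCR, 147 with CSA, 589 with PKCi and 647 with Combo (log2 1.70). Icam1, the adhesion molecule bound by LFA-1, was at 33.1, 58.4, 31, 35.2 and 244 (2.06), and was above its floor by more than 4 times with Combo alone. Traf1 was at 650 in mock cells, 223 with anti-TCR and 499 with Combo (1.16). Nfkbiz, an atypical IkB protein, was lower, at 377.5 and 136.5 (-1.47), and Nfkbid, another, stood at 6299 and 3168 (-0.99). Nfkbia was at -0.86 on a suffixed probe set and 0.71 on another.

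Nucleolar ribosome biogenesis genes, a growth programme that mTOR is known to support, stood mostly below 0. Of 35 measured members 30 were below 0, against 48.6% of all genes, and 5 were lower and none higher, against 5.46% and 7.95% of all genes, with a median of -0.49. The lowest were Gnl3 (386 with anti-TCR and 154 with Combo), Rrs1 (687 and 274) and Tsr1 (637 and 273). The list of housekeeping genes had a median of -0.39 with Combo. The nucleolar median over anti-TCR was -0.26 with CSA and -0.94 with PKCi, so values below 0 were not particular to Combo. Cytosolic ribosomal protein genes, by contrast, had a median of -0.10, with 2 of 27 lower, Rpl41 (suffixed) and Rpl37a. Of 13 tRNA synthetases 10 were below 0 with a median of -0.54, and Iars was the 1 called, at 821 and 385. The median of that list was -0.16 with CSA and -0.85 with PKCi.

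Translation factors had 26 measured members, 2 higher and 3 lower, against 7.95% and 5.46% of all genes. Eef2, the elongation factor, was at 1070 in mock cells, 522 with anti-TCR, 1544 with CSA, 677 with PKCi and 2457 with Combo (log2 2.24), and at 0.83 on another chip type. Eif4ebp2, a repressor of cap-dependent translation, was higher (360 and 745). Eef1e1 (1632 and 618) was lower, as were Eif3i and Eif4a1 on suffixed probe sets. In the list of Myc, Max and Mxd genes and targets 11 were measured, 2 lower and 1 higher. Ccnd2, a cyclin (1727 and 781), and Srm, spermidine synthase (-1.08 on a suffixed probe set and -0.53 on another), were lower, and Mxd4, a Myc antagonist, was higher (268 and 656, suffixed).

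Atf4 targets of the amino acid response had 4 of 21 lower and 1 higher, against 5.46% and 7.95% of all genes. Their median was -0.42, and it was -0.37 with CSA and -0.68 with PKCi. Chac1, a glutathione-degrading enzyme, was at 155 in mock cells, 585 with anti-TCR, 302 with CSA, 89.2 with PKCi and 208 with Combo (log2 -1.49). Asns, asparagine synthetase, was at 395.5, 1325, 654, 278 and 556 (-1.25, and -0.46 on another chip type). Sesn2, a nutrient sensor upstream of mTOR, was at 460 and 119.5 on a suffixed probe set (-1.94). Slc7a5, a leucine transporter, was the other member called lower (-1.04), and was named after its value was seen. The member called higher was Slc1a5, whose probe sets disagreed.

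Asns and Chac1 carry the element TGATGNAA, the C/EBP-ATF site known from amino acid response genes, in their promoters, and their stretches are shown for that reason. They are the 250 bases before the start, Asns at chr6:7693210-7693459 on the minus strand and Chac1 at chr2:119350992-119351241 on the plus strand (GRCm38.p6, RefSeq), with the element in capitals on either strand.
Asns: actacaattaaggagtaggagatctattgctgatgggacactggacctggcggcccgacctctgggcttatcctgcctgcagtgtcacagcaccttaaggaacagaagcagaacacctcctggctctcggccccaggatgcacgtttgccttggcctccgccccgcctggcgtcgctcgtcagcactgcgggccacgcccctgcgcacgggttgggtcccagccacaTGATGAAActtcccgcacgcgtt
Chac1: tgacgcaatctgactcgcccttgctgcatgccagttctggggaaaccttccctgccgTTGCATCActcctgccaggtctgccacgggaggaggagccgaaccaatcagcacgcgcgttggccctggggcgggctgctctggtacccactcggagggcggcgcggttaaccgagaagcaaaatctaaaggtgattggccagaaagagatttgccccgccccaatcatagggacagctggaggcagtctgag
Each held 1 match. The element can overlap a GGAAA. It is rare, in 3.45% of all promoters, 2.33% of those of measured genes, 3.23% of those of genes called higher and 4.12% of those of genes called lower. Of the 16 measured Atf4 list genes with a promoter entry, 4 held it: Asns, Atf3, Chac1 and Gars. Gars, a tRNA synthetase, stood at -0.91 (660 with anti-TCR and 350 with Combo).

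Sterol synthesis genes, driven by the Srebp factors, had 4 of 17 lower and none higher, against 5.46% and 7.95% of all genes. Their median was -0.22, with 15 below 0. Idi1, of the isoprenoid steps, was at 194 in mock cells, 378 with anti-TCR, 892 with CSA, 52.8 with PKCi and 85.9 with Combo (log2 -2.14). Cyp51, the lanosterol demethylase, was at 123, 307, 525, 56.8 and 92.9 (-1.72). Insig1, the sterol-induced brake on Srebp, was at 85.8, 365, 655, 126 and 135 (-1.43). Fdft1 (-1.21), squalene synthase, is the member called beside these, named after its value was seen. In Idi1, Cyp51 and Insig1 the levels ran from CSA at the top through anti-TCR to PKCi and Combo, whereas Sqle, squalene epoxidase, was at 302 and 295 with anti-TCR and Combo.

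Glycolysis genes had 12 measured members, 1 higher, none lower and a median of -0.31. Pgk1 (1518 and 767) stood just inside the limit at -0.99, and Tpi1 (1485 and 810) at -0.87. Pdk1, which holds pyruvate back from the mitochondria, was higher, at 253 in mock cells, 89.6 with anti-TCR and 228 with Combo. Vegfa, the growth factor of blood vessels, was lower (522 and 177), and with Pdk1 made up the calls among 11 hypoxia targets. Respiratory chain and ATP synthase genes had a median of 0.16, with 1 of 39 higher and 2 lower, against 7.95% and 5.46% of all genes.

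The list of brakes on PI3 kinase and mTOR went both ways. Lower were 3 of 7 and higher 2, against 5.46% and 7.95% of all genes. Its median was -0.39, and ran from -1.94 to -0.10 under the alternatives to the processing. With PKCi 5 of 9 were higher and 2 lower, with a median of 1.40. Sesn2, given with the Atf4 targets, was 1 of the 3 that were lower with Combo. Trib1, a pseudokinase, was at 249 in mock cells, 2245 with anti-TCR, 1215 with CSA, 229 with PKCi and 583 with Combo (log2 -1.95), and a probe set on another chip type gave -1.73. Deptor, an mTOR-binding inhibitor, was at 313 and 137 (-1.20). Pik3r1, the regulatory subunit p85 alpha, was at 1640, 687, 2069, 1811 and 1932 (1.49, and 0.41 on another chip type), and Pik3ip1, an inhibitor of PI3 kinase, at 122 and 328 on a suffixed probe set (1.43). For Pik3r1 the anti-TCR value was the lowest of the 5.

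Autophagy and lysosome genes, which mTOR is known to hold down, had a median of 0.25. Of 24 measured, 16 were above 0 and 8 below, against 48.6% of all genes below. There were 3 higher and 2 lower, against 7.95% and 5.46% of all genes. The list median over anti-TCR was 0.38 with PKCi and -0.03 with CSA. Map1lc3b (LC3B), which coats autophagosomes, was at 584 in mock cells, 119 with anti-TCR, 177 with CSA, 599.5 with PKCi and 523 with Combo (log2 2.13). Its other probe sets gave 0.91 and 0.70. Ctsc, a cathepsin that activates granzymes, was at 102.5 and 387 on a suffixed probe set (1.92), and at 0.91 on another. Npc2, a lysosomal cholesterol carrier, was at 491 and 1191 (1.28). Cathepsin D, Ctsd, went the other way at 835 and 391 (-1.10), as did Gusb (419 and 204, suffixed).

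Quiescence genes held Txnip, a brake on glucose uptake, at 744 and 1523 (1.03, suffixed), and Pik3ip1, both higher, of 13 measured. Il7r, the IL-7 receptor, stood at 2215 in mock cells, 492 with anti-TCR and 744 with Combo (0.60). Among replication and G1 to S genes, the inhibitor Cdkn1a (p21) was lower on both probe sets (-1.28 and -1.07; 596 and 245 on the brighter), with Ccnd2 and Cdc45 (suffixed), and Pold1 was higher (suffixed), of 14 measured. Of 17 Th1 and Th2 factors 4 were higher and 1 lower, against 7.95% and 5.46% of all genes. Rora was higher on both chip types that measured it (1.61 and 1.65, with 214 and 651 on the brighter). Tox was lower (751 and 277). Cd47, the signal that keeps phagocytes away, was higher on both of its probe sets (1.34 and 1.90), at 3390 in mock cells, 1191 with anti-TCR and 3011 with Combo.

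Chromatin enzymes had 3 of 27 higher and 3 lower, against 7.95% and 5.46% of all genes, with a median of 0.35. Kdm6b, which removes the repressive H3K27 methyl mark, was at 7.3 in mock cells, 4085 with anti-TCR, 2701 with CSA, 4.4 with PKCi and 1458 with Combo (log2 -1.49). Dnmt3a, a DNA methyltransferase, was at 963 and 380 (-1.34), and Smarca2, a nucleosome remodeller, at 508 and 226 (-1.17). Ezh1 (108 and 283), Kdm5a (110 and 269) and Kat2a (124 and 284) were higher. Heat shock and folding genes had 2 of 24 lower and none higher, against 5.46% and 7.95% of all genes. The 2 were the inducible Hspa1b (1060 and 346) and mitochondrial Hspa9 (1635 and 790). Constitutive and inducible proteasome genes had 26 measured members, 2 higher (Psme1 and Psmd4) and 3 lower (Psme3, Psmb6 and the suffixed Psmb7). The shares over all genes were 7.95% and 5.46%. Housekeeping genes had a median of -0.39, with 1 of 11 lower (Gusb) and Actb within 2-fold, so medians of that size were also seen in genes chosen for their stable level.

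**Figure D5:**
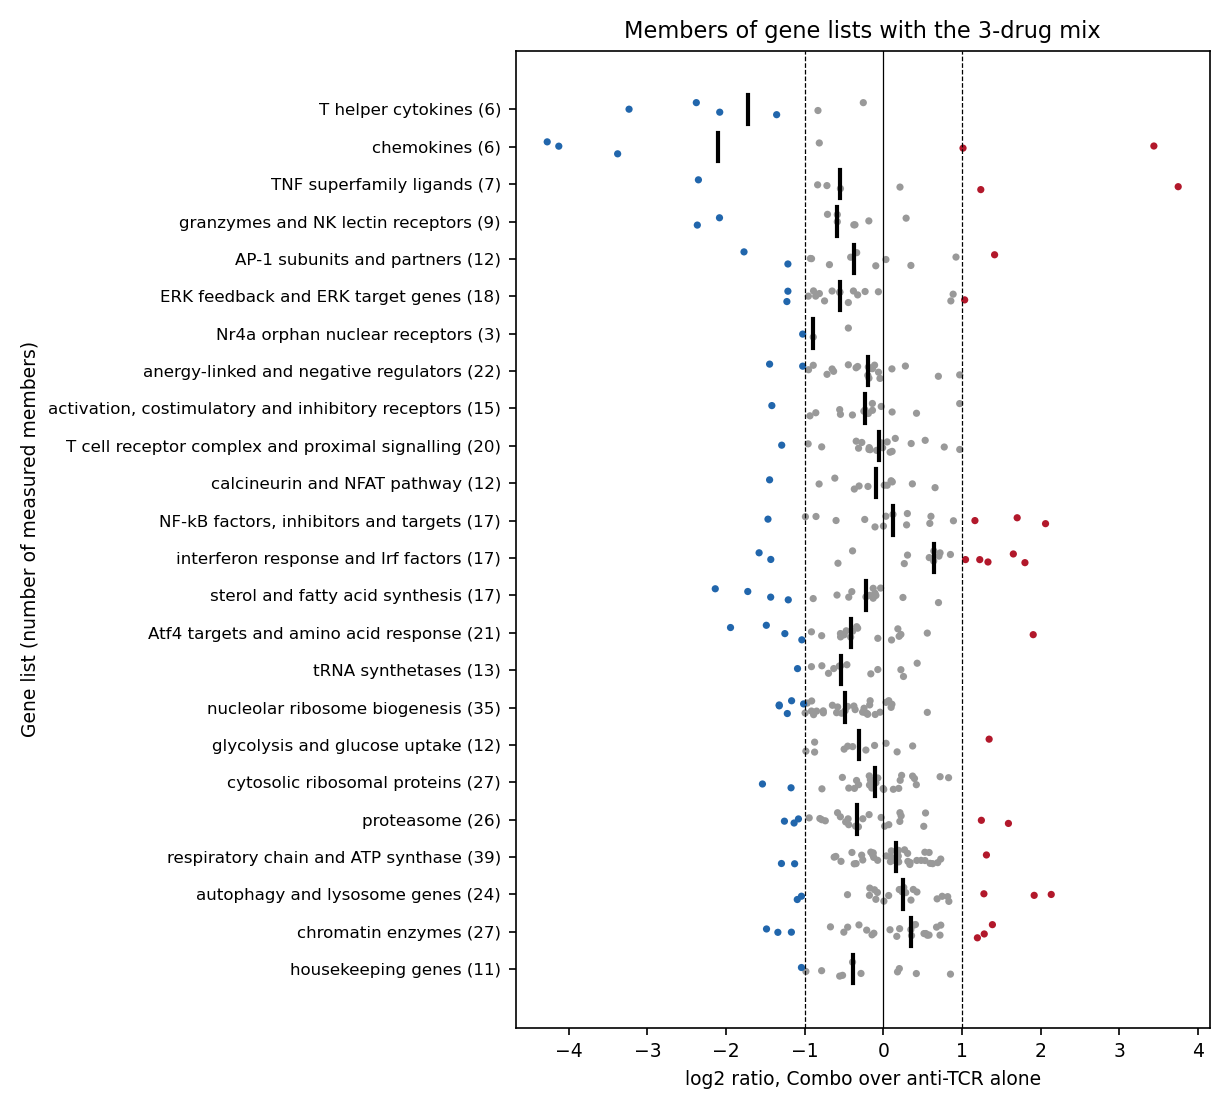
Each point is a measured member of a gene list, placed by its log2 ratio of Combo over anti-TCR; black bars are list medians, dashed lines mark 2-fold, and numbers of measured members are in parentheses. Cytokines and chemokines spread far to the left, interferon response and Irf genes lie mostly right of 0, and nucleolar genes mostly left of it within 2-fold.

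The 20 genes with the largest falls, taken where further probe sets had the same sign, were lower by 5.20-fold to 31.8-fold, 7 of them as bounds, whose place in the order is set by the floor. With Combo 11 of them were within 2-fold of mock cells, 6 above and 3 below. Picking by a low ratio of Combo over anti-TCR favours high anti-TCR values, including readings that were high in error. Whether such readings took part in the count of 11 was not tested. Gchfr, the regulator of GTP cyclohydrolase, was at 6187 in mock cells, 8034 with anti-TCR, 5157 with CSA, 8060 with PKCi and 253 with Combo. That value comes from a suffixed probe set on chip type C, and its probe sets on chip type B were under the floor in both treatments.

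Srxn1, sulfiredoxin, an antioxidant enzyme, was at 20.2 in mock cells, 1602 with anti-TCR, 1355 with CSA, 92.2 with PKCi and 175 with Combo (log2 -3.19). Pou2f2 (Oct-2), a lymphoid transcription factor, was at 540 with anti-TCR and under the floor in the other 4 arrays, at least 7.77-fold lower. Rgs3, which shortens G protein signals, was at 480, 2343, 861, 295 and 412 (-2.51, and -0.95 on another chip type). Pmepa1, an inhibitor of TGF-beta signals, was at 149, 764, 1428, 158 and 100 (-2.93), and Rrad, a small GTPase, at 119, 2050, 2865, 688 and 377 (-2.44). Mmd was at 1688 and 197 (-3.10), and at -0.72 on another probe set. In Srxn1, Pmepa1 and Rrad, CSA left the level near that of anti-TCR or above it, and Combo did not.

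The others of the 20 were Atoh8, Vwa5b2, Capns2, Ift46, 1810035K13Rik, 4933407O12Rik, Gm19531 (suffixed) and A230107N01Rik (suffixed), beside Xcl1, Ccl9, Il5, Il13 and Ifih1 given above. Of all 20, 17 rest on 1 measured probe set.

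The 20 genes with the largest rises were higher by 4.47-fold to 13.4-fold, 6 of them as bounds, and 12 were within 2-fold of mock cells with Combo, 8 above and none below. Synrg, a partner of the clathrin adaptor AP-1, was at 1048 in mock cells, 41 with anti-TCR, 705 with CSA, 699 with PKCi and 669 with Combo, at least 12.2-fold higher. Thap3 was at 496, 69.7, 315, 453 and 664 (log2 3.25). Chst12, a chondroitin sulfotransferase, was at 667, 100, 222, 705 and 536 (2.42), and H1f2, a linker histone, at 240, 49.4, 161, 492 and 408, at least 7.98-fold higher. Rnf125, a ubiquitin ligase, was at 2843, 460, 1376, 4899 and 2053 (2.16), with 1.63 on another chip type. In these 5 genes the anti-TCR array was the lowest of the 5 arrays. They were taken from 20 genes picked by a high ratio of Combo over anti-TCR, which favours low anti-TCR values. An anti-TCR reading that was low in error would give the same pattern and could leave Combo near mock. Whether such readings took part in the pattern or in the count of 12 was not tested, as there is no replicate.

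Fam102b was higher on both of its probe sets, at 117 with anti-TCR and 571 with Combo on the brighter and at 128 and 362.5 on the other. Add1, a spectrin-binding protein, was at 184 with anti-TCR and 897 with Combo (2.29), Snx20, a sorting protein, at 68.3 and 333 (2.29), and Smyd3, a lysine methyltransferase, at 45.3 and 250, at least 4.54-fold higher. The others were Klhl26, Adgrl3, Crygc, Uqcr11, Cuta (suffixed), Slco6b1 (suffixed), Dusp28 (suffixed) and Tmem161a (suffixed), beside Tnf, Ccl4 and Eef2. Of these 20 too, 17 rest on 1 measured probe set.

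Dim probe sets gave more of the calls than bright ones. When measured probe sets were cut into 5 equal bins by mean level, 226 were higher and 207 lower of the 1722 in the dimmest bin, against 78 and 93 of the 1722 in the brightest. Medians of the bins lay between -0.09 and 0.04. The comparisons of CSA and PKCi use the same anti-TCR arrays as Combo, so their values for the members stand side by side above and no overlap was counted.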

How the data were processed

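The deposited values are linear array intensity values, 1 per probe set, from 15 arrays (5 treatments on 3 chip types). Per the labels the RNA was total RNA of A.E7 cells pooled from 3 times. The scanner software, summarisation and scaling used by the authors are not given in the sources used here. From the values, mean levels after a 2% trim were nearly equal within each chip type, running from 147.9 to 149.6, and array medians ran from 46.95 to 70.8, so the values were used as deposited.

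Symbols came from the platform annotation: 29131 probe sets had 1 symbol, 724 several and 6846 none, and 29044 matched RefSeq. Values were raised to the floor, log2 ratios were taken per chip type, and no chip types were merged. Promoters came from RefSeq and were scanned for each motif on both strands.

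The members, 51 gene lists and rules were chosen with earlier results of these data known. Genes were named by rule: the 20 highest and 20 lowest genes whose measured probe sets had 1 sign, the 3 highest and 3 lowest of each list, and all measured members of 4 lists (ERK targets, Egr and Nab, Nr4a, drug targets). Others were named outside these rules, some of them after their values were seen, as is said where they appear. Actb, Cd8a and the interleukins under the floor are also outside the rules. Lists not described in the text are given in the closing observations.

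Alternatives were quantile normalization, median and trimmed mean scaling, 0.5 and 2 times the floor, a minimum of 8 or 2 times the floor, suffixed probe sets left out, each chip type left out, averaging over probe sets of 1 gene and 3-fold as limit. The steps were tested on simulated data. Python 3.11.15, pandas 2.3.3, numpy 2.4.6, scipy 1.17.1 and matplotlib 3.10.9 were used.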

Additional observations from a re-analysis of the deposited data

How the results depend on the processing

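With a minimum of 8 times the floor, there were 302 probe sets higher with Combo and 303 probe sets lower with Combo, and 228 genes were higher and 197 lower; with 2 times the floor these were 1300, 946, 739 and 499. At 3-fold they were 170, 149, 104 and 89. Without chip type A, 393 probe sets and 269 genes were higher; without chip types B and C, 334 and 337 probe sets were lower. These settings change how many features are tested or how large a change must be. The share of higher among called genes was 59.3% as deposited and ran from 53.6% (8 times the floor) to 63.1% (median scaling).

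Of the 137 named genes called, 130 were still called under median scaling and 124 with probe sets averaged per gene; under quantile normalization 129 of 135 that could be measured were. Egr4 turned to -0.19 with suffixed probe sets left out, and Slc1a5 to -1.02 with these or chip type C left out. The medians of the Atf4, nucleolar, tRNA synthetase and interferon lists kept their sign under the alternatives to normalization, floor, minimum, probe sets and chip types. So did that of the cytokines, except that without chip type A no cytokine was measured. Other medians changed sign under some setting. Among them were those of the NF-kB (-0.11 to 0.32), chromatin enzyme (-0.02 to 0.38) and p38 (-0.04 to 0.18) lists. The cytosolic ribosomal protein (-0.17 to 0.07) and death regulator (-0.47 to 0.72) lists did so too.

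No paired analysis was possible because every treatment has just 1 array on a chip type, and leaving out a replicate was not possible for the same reason. Signal over background per probe set was not used here, so the floor alone sets what counts as dim.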

Other observations

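Lists not described above gave these values. Immediate early Ier and Klf genes had 8 measured members and none called, with a median log2 ratio of -0.20, and Klf6 was at 3350 with anti-TCR and 3235 with Combo. Ier5l stood at 264.5 and 412, against 5812 with CSA and 3103 with PKCi. One-carbon and nucleotide synthesis genes had 12 measured members and none called, with a median of -0.03 and Ctps the lowest at -0.89. In the MAP kinase phosphatase and Sprouty list 1 of 10 was higher (Dusp7) and 1 lower (Spry1), with a median of -0.23.

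In the list of Rgs genes and Crem, 2 of 14 were higher, Rgs14 (397 and 805) and the suffixed Rgs19 (154 and 496), and 2 were lower, Rgs3 and the prostaglandin receptor Ptger2 (753 and 337). Glycosyl-, sialyl- and sulfotransferases had Chst12 and the polysialyltransferase St8sia4 (118 and 313) higher and B4galt5 (645 and 139) lower, of 18 measured. Death regulators had Tnfsf10 higher and none lower, of 10, and Mcl1 stood at 0.86. Of 18 tricarboxylic acid cycle and mitochondrial biogenesis genes, Tomm40 (suffixed) and Nrf1 were lower, and a further probe set of Nrf1 stood at 0.40. Of 19 adhesion and migration genes, Icam1 and Cd47 were higher. Both measured mitosis genes, Cdc20 and the suffixed Kif15, stood below 0 and were not called.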
